A study of Rattus norvegicus with 2 samples.

Results

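The 41 mitosis and G2/M genes described here encode the kinases and cyclins that start mitosis, the spindle checkpoint, the kinetochore, the chromosomal passenger complex, the spindle and cytokinesis machinery, chromosome structure proteins and the transcription factors FOXM1 and B-Myb. They were chosen as a fixed list of symbols, by a rule that uses no measured value and leaves kinesins out, although Cenpe, which is on the list, encodes one. The list, the rule and the other gene lists set beside it below were chosen with earlier results of these data known. All 41 were found by symbol among the 17455 genes of the deposited table, and all 41 reached the floor of a mean of 1 TPM (a share of the library corrected for gene length) over both libraries that 13175 genes reached. The series holds 2 RNA sequencing libraries of wild type rat oligodendrocyte precursor cells (OPCs), the dividing glial progenitors that give rise to myelinating oligodendrocytes. One culture was transfected with Slit1, which encodes a secreted ligand of Robo receptors, and the other, labelled control, is taken to be the one that received vector, with a Lonza kit used for both. The sources used here give neither the time from transfection to harvest, nor the promoter of the construct, nor the number of animals behind each culture.

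Mitosis is started by the cyclin-dependent kinase CDK1 bound to cyclin A or B. The spindle checkpoint then holds the anaphase-promoting complex inactive until every kinetochore is attached to the spindle, after which securin and cyclin B are destroyed and the chromosomes part. Most of these genes are transcribed in G2 and M and are silent in resting cells, so in a culture of OPCs, which divide in response to PDGF and leave the cycle as they differentiate, their summed RNA is commonly read as a measure of proliferation. In bulk RNA, fewer cells in G2 or M and less of these RNAs per cell cannot be told apart.

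Many promoters of this class hold a cell cycle genes homology region (CHR), a short element bound by the MuvB complexes that repress these genes in resting cells and activate them in G2, together with CCAAT boxes bound by NF-Y. The 300 bases around the gene start, 250 before it and 50 after it, were found for 33 of the 41 genes in the RefSeq promoter table of build GRCr8, which is not the build of the expression table. Those of Ccna2, Pbk, Ube2c, Aurkb, Incenp, Tpx2, Racgap1 and Foxm1 were not used here. Of the promoters shown, 5 were picked because they carry both elements, 3 from the genes with the largest differences among promoters of that kind, 1 from Top2a, an abundant gene with a small difference, and 1 from Cks2, which was lower in the Slit1 library. That of Melk, a gene that was higher, is added as a promoter without an exact match to the letters of either element. Capitals mark the CHR core TTTGAA and the CCAAT box on either strand, so TTCAAA and ATTGG are the same letters read from the opposite strand, and each sequence runs 5′ to 3′ along the gene.
Birc5, GRCr8, chr10:103571896-103572195, + strand: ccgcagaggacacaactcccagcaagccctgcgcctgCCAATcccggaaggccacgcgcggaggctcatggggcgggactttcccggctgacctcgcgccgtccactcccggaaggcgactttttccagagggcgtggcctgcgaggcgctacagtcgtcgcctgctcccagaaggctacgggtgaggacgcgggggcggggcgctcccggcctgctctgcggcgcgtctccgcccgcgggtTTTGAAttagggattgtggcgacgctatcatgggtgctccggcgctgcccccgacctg
Ttk, GRCr8, chr8:93634389-93634688, + strand: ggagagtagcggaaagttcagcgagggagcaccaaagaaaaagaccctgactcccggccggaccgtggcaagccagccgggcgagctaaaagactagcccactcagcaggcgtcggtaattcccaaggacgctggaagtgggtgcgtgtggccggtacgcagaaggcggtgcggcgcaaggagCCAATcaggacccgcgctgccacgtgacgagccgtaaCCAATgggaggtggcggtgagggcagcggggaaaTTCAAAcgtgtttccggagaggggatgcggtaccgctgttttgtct
Cdk1, GRCr8, chr20:19265043-19265342, + strand: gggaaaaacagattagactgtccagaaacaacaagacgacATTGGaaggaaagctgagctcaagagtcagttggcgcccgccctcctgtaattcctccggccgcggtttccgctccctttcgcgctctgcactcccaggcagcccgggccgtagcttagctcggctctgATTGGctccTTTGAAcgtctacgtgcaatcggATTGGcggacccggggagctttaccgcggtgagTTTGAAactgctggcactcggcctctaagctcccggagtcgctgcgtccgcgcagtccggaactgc
Top2a, GRCr8, chr10:84473044-84473343, - strand: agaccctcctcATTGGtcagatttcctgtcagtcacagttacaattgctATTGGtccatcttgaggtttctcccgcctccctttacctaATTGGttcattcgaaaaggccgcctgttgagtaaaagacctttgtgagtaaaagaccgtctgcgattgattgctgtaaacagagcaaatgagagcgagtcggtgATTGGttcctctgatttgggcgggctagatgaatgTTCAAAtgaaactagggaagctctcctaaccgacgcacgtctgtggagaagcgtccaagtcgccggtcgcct
Cks2, GRCr8, chr17:13727470-13727769, - strand: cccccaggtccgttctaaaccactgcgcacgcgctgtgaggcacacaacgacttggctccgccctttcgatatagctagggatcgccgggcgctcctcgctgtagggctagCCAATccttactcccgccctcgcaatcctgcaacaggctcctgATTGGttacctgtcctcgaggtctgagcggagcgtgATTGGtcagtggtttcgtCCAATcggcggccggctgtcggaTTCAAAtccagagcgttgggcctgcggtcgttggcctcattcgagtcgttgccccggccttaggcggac
Melk, GRCr8, chr5:63335901-63336200, + strand: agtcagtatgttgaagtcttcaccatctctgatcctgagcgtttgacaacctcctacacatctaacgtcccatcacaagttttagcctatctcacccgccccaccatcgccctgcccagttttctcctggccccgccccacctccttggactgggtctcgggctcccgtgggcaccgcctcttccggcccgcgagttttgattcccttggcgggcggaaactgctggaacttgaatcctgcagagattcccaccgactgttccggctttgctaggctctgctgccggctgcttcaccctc

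The CHR core was present in 25 of the 33 promoters (75.8%), against 11.4% of the 10745 promoters of genes that were tested and 18.1% of all 27457 promoters in the table. CCAAT boxes were present in 24 of the 33 (72.7%), against 37.9% of promoters of tested genes, and 19 of the 33 (57.6%) had 2 or more, against 13.9%. 20 of the 33 held both elements (60.6%), against 4.70%. The elements touched or overlapped each other in 2 member promoters. Of the 29 CHR matches in the member promoters, 13 (44.8%) ended within 25 bases of the gene start, against 13.9% of the 1349 matches in promoters of tested genes. In the members CCAAT matches lay farther upstream than CHR matches, with medians of 96 and 16 bases between the motif and the start. In tested genes the order was reversed, with medians of 98 bases for CCAAT and 128 bases for CHR. In other G2/M genes 27 of 57 promoters held a CHR core (47.4%), and in DNA replication and G1/S genes 6 of 41 (14.6%). CCAAT boxes were frequent in both of these lists, in 36 of the 57 (63.2%) and in 25 of the 41 (61.0%).

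**Figure D1:**
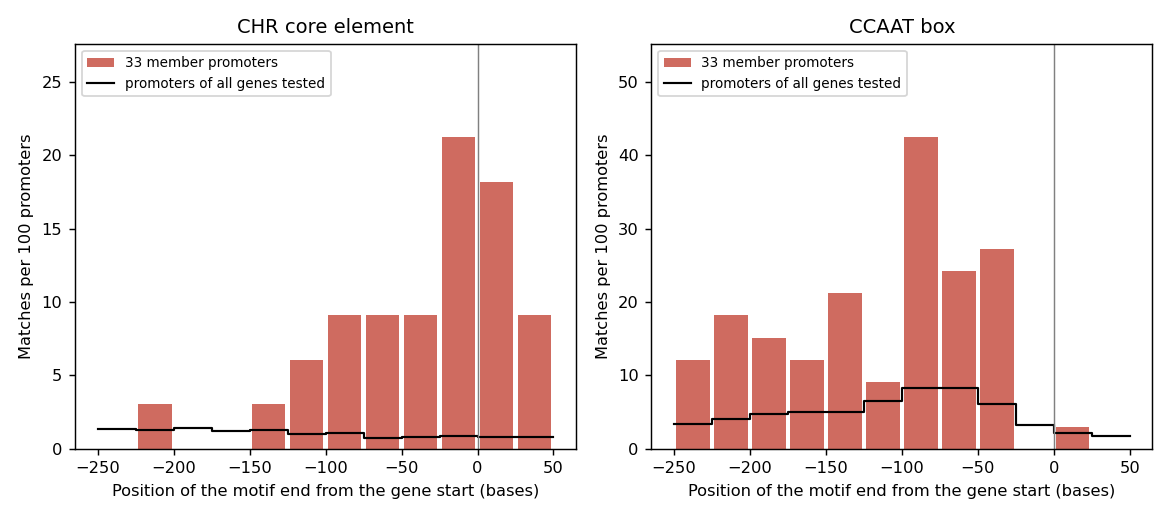
Position of the CHR core (left) and the CCAAT box (right) relative to the annotated gene start, in bases, as matches per 100 promoters; red bars are the 33 member promoters and the black line is the promoters of all genes tested. CHR matches of the members pile up around the start, where 13 of 29 ended within 25 bases of it.

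Genes with and without these letters overlapped in their difference between the libraries. The median log2 difference was 0.31 in the 25 genes with a CHR core and 0.15 in the 8 without, and both sets held genes on either side of 0. The highest gene with a window, Birc5, and the lowest, Knl1, each had 1 CHR core in it. Melk, next after Birc5 and Ttk among these genes, had no exact match to either element in its window. Variants of the CHR core were not searched. The Knl1 window had a GC content of 29.7%, the lowest of the 33. Its annotated start falls at the letters atg, after a run of T that ends in cag. In Aurka the annotated start directly follows the letters cag. The windows of Knl1 and Aurka may therefore lie inside the gene and not at its promoter, which was not tested. A match is a description of the sequence, and no binding was measured.

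Levels were low to moderate and the order of the genes was alike in the 2 libraries. The median gene of the 41 was at 16.6 TPM in the Slit1 library and at 12.7 TPM in the control library, and the range was 3.68 to 105.2 TPM in the Slit1 library and 3.68 to 113.5 TPM in the control library. Bub3, a checkpoint adaptor, was the most abundant in both, and Ncapg, a condensin subunit, the least abundant in both. Log2 TPM values of the 41 genes in the Slit1 library followed those in the control library with Pearson's r = 0.96 and Spearman's rho = 0.96, a description across genes measured in the same pair of libraries. The estimated counts behind each value ran from 126 to 1666 in the Slit1 library and from 104 to 1418 in the control library.

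**Figure D2:**
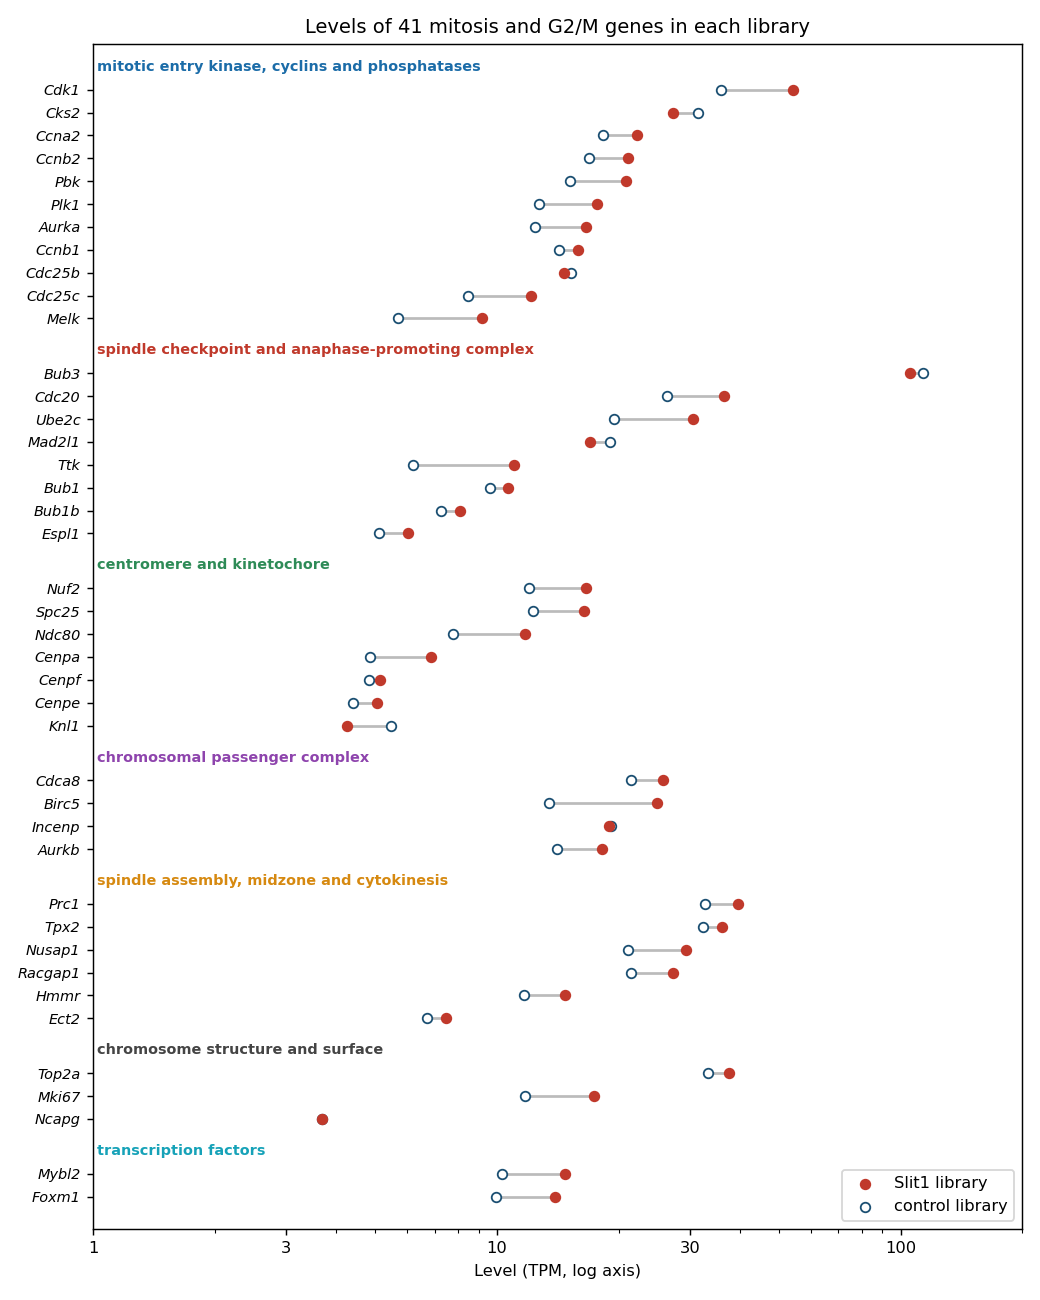
Level of each of the 41 genes in TPM (log axis), grouped by role; filled red points are the Slit1 library and open points the control library, 1 library each. In 34 genes the Slit1 point lies to the right, Bub3 is the most abundant at 105.2 TPM in the Slit1 library and 113.5 TPM in the control library, and Ncapg has the same value in both.

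As a group the mitosis and G2/M genes were slightly higher in the Slit1 library. Differences are given as log2(TPM + 1) in the Slit1 library minus that in the control library, a scale that understates the change of low genes. Of the 41 genes, 34 had a difference above 0 (82.9%), against 43.7% of all genes tested, 6 lay below 0, against 56%, and 1 was at 0. The median difference was 0.31, with quartiles of 0.14 and 0.45, against a median of -0.05 and quartiles of -0.24 and 0.15 over all genes tested. Because each condition was sequenced once, the difference has no replicate check, no p-value was computed, and the treatment and the spread between cultures cannot be told apart.

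Large steps were few. At least 1.5-fold higher on this scale were 4 of the 41 genes (9.76%), against 3.72% of all genes tested, and 0 were lower by that much, against 4.83%. By the plain TPM ratio, 6 of the 41 were at least 1.5-fold higher, the same genes with Cdk1 and Ndc80, against 4.93%, and 0 lower, against 6.83%. On the log2(TPM + 1) scale, a limit of 25% above control was passed by 20 of the 41, against 10.7%, and the same fold downwards by 0, against 17.9%. A 2-fold step up was reached by 0 of the 41, against 1.24%, and a 2-fold step down by 0, against 0.645%. For each gene an exact 95% interval of the TPM ratio was taken from the Poisson error of its 2 rounded counts, and it covers counting error only. The interval lay wholly above 1 in 28 of the 41 (68.3%), against 22.3% of all genes tested, wholly below 1 in 1, Knl1, against 33.6%, and included 1 in the other genes. Genes of similar depth gave nearly the same background, since 22.1% of the 7802 genes with a mean count in the range of the members had an interval above 1.

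**Figure D3:**
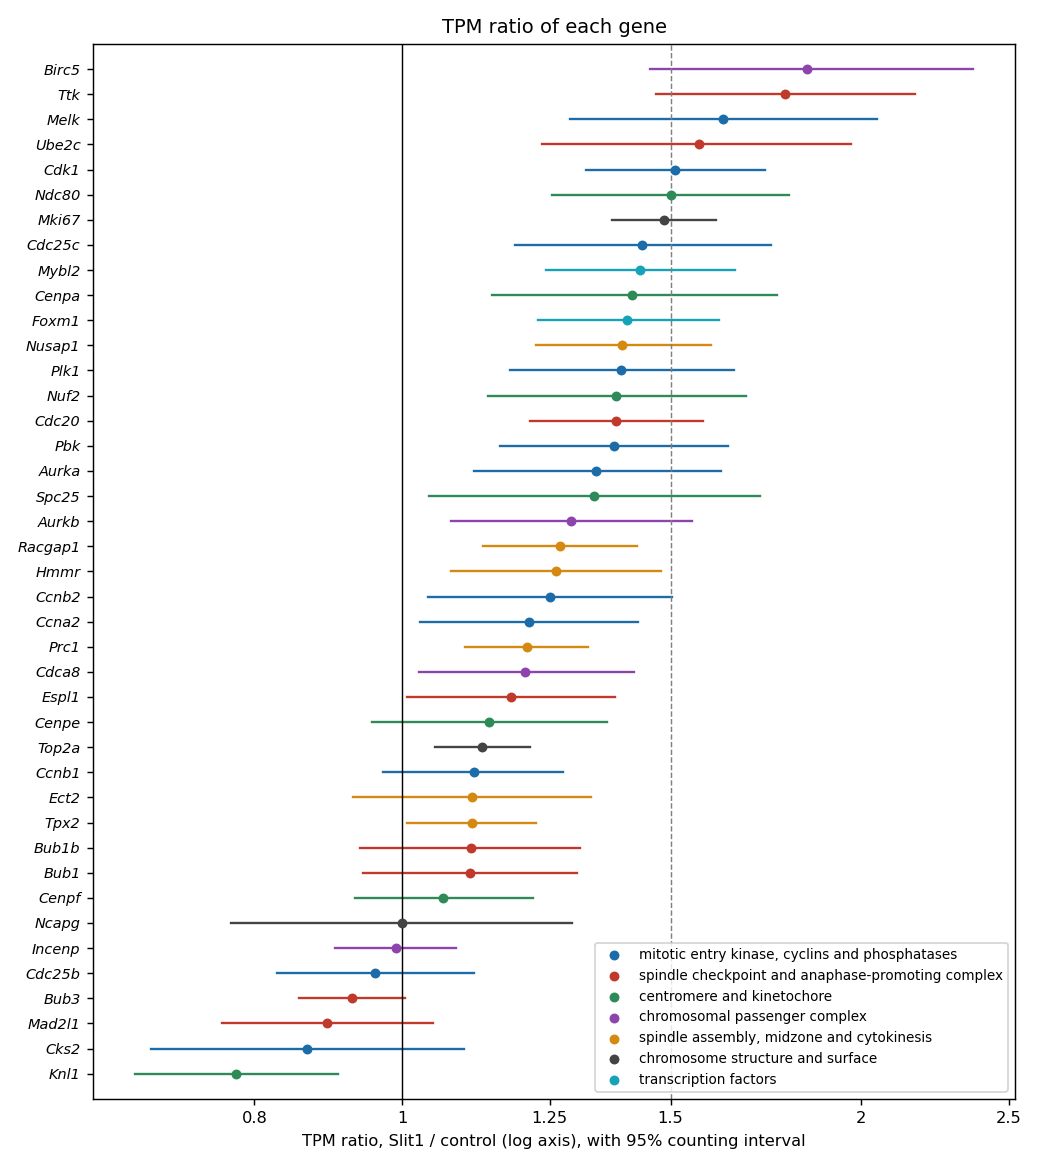
TPM ratio of each gene, Slit1 over control (log axis), with its exact 95% counting interval, ordered by ratio and coloured by role; the solid line is a ratio of 1 and the dashed line 1.5. The interval lies wholly above 1 in 28 genes and wholly below 1 in Knl1.

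Among the genes of mitotic entry, Cdk1 itself was the most abundant in both libraries. Of these 11 genes, 9 had a difference above 0 (81.8%), against 43.7% of all genes tested. An interval above 1 was seen in 8 (72.7%), against 22.3%. At least 1.5-fold higher on the log2(TPM + 1) scale was 1, Melk (9.09%), against 3.72%. Cdk1 measured 54.0 TPM (556 estimated counts) in the Slit1 library and 35.8 TPM (355 counts) in the control library, a ratio of 1.51 (interval 1.32 to 1.73). Its partners differed less. Ccnb2 measured 21.1 TPM in the Slit1 library and 16.9 TPM in the control library (ratio 1.251, interval 1.04 to 1.503), and Ccna2, cyclin A2, 22.2 TPM in the Slit1 library and 18.3 TPM in the control library (ratio 1.21, interval 1.03 to 1.43). Ccnb1, cyclin B1, was at 15.9 TPM in the Slit1 library and 14.3 TPM in the control library, and the interval of its ratio of 1.11 (0.971 to 1.28) ended below that of Cdk1. The cyclin B1 level was therefore 0.294 of the Cdk1 level in the Slit1 library and 0.399 of it in the control library. Cks2, a small subunit that binds CDK1, was at 27.2 TPM (139 counts) in the Slit1 library and 31.5 TPM (154 counts) in the control library, 1.16-fold lower with an interval of the ratio, 0.684 to 1.10, that included 1.

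The phosphatases that activate CDK1 stood apart in TPM and less so in counts. Cdc25c measured 12.1 TPM in the Slit1 library and 8.45 TPM in the control library (ratio 1.44, interval 1.19 to 1.75), while Cdc25b measured 14.6 TPM in the Slit1 library and 15.2 TPM in the control library (ratio 0.960, interval 0.828 to 1.11). These intervals of the TPM ratio did not overlap, and Cdc25b was below 0 in each of the 6 scalings tried. The Cdc25c value depended on the length the authors' processing gave it, which was 2.25 kb in the Slit1 library and 2.63 kb in the control library, and its 246 counts in the Slit1 library and 192 in the control library give a ratio of 1.28. For Cdc25b the count ratio was 0.972. The intervals of the count ratio, 1.06 to 1.56 for Cdc25c and 0.838 to 1.13 for Cdc25b, overlap. Such an overlap does not show that the ratios are alike, and the gap between them was not tested.

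The kinases Plk1, Aurka, Melk and Pbk were all above 0. Plk1, which promotes centrosome maturation and mitotic entry, measured 17.7 TPM in the Slit1 library and 12.7 TPM in the control library (ratio 1.39, interval 1.18 to 1.65). Aurka, the centrosomal aurora kinase, measured 16.6 TPM in the Slit1 library and 12.4 TPM in the control library (ratio 1.34, interval 1.12 to 1.62). Melk, a kinase found in dividing progenitor cells, was at 9.20 TPM (203 counts) in the Slit1 library and 5.67 TPM (121 counts) in the control library, a ratio of 1.62 (interval 1.29 to 2.05) that came next after Birc5 and Ttk. Pbk, a MAPKK-like mitotic kinase, measured 20.9 TPM in the Slit1 library and 15.2 TPM in the control library (ratio 1.38, interval 1.16 to 1.64).

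The spindle checkpoint genes spread widely. Of 8 genes of the checkpoint and the anaphase-promoting complex, 6 were above 0 (75%), against 43.7% of all genes tested. An interval above 1 was seen in 4 (50%), against 22.3%. At least 1.5-fold higher were 2, Ttk and Ube2c (25%), against 3.72%. Ttk, the kinase MPS1 that starts checkpoint signalling, measured 11.0 TPM (305 counts) in the Slit1 library and 6.19 TPM (161 counts) in the control library, a ratio of 1.78 (interval 1.47 to 2.17). The proteins that MPS1 recruits differed little. Bub1 had a ratio of 1.11 (10.6 TPM in the Slit1 library, 9.60 TPM in the control library), and Bub1b, which encodes BUBR1, also had 1.11 (8.08 TPM in the Slit1 library, 7.28 TPM in the control library), and both intervals included 1. Mad2l1, the inhibitor of CDC20, measured 17.0 TPM in the Slit1 library and 19.1 TPM in the control library (ratio 0.892, interval 0.761 to 1.047), and Bub3 105.2 TPM in the Slit1 library and 113.5 TPM in the control library (ratio 0.927, interval 0.856 to 1.004). The interval of Ttk lay above those of these 4 genes without overlap.

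Genes that act after the checkpoint, at the anaphase-promoting complex, were higher. Cdc20, the activator that the checkpoint holds back, measured 36.4 TPM (565 counts) in the Slit1 library and 26.4 TPM (393 counts) in the control library (ratio 1.38, interval 1.21 to 1.58). Ube2c, the ubiquitin-conjugating enzyme of the complex, measured 30.6 TPM (196 counts) in the Slit1 library and 19.5 TPM (121 counts) in the control library (ratio 1.57, interval 1.23 to 1.97). Espl1, the separase that cuts cohesin, was at 6.02 TPM in the Slit1 library and 5.11 TPM in the control library (ratio 1.18, interval 1.01 to 1.38). The subunits of the complex itself, which are needed throughout the cycle, did not share one direction. Of 15 genes on a list of these subunits with the partner enzyme Ube2s, 9 were above 0 (60%), against 43.7% of all genes tested. None passed 1.5-fold either way, and the median difference was 0.05. Ube2s was the highest (192 TPM in the Slit1 library and 146 TPM in the control library, ratio 1.32) and Cdc27, a scaffold subunit, the lowest (25.1 TPM in the Slit1 library and 34.2 TPM in the control library, ratio 0.736).

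At the kinetochore, the genes of the microtubule-binding NDC80 complex and Knl1 lay on opposite sides. Of 7 centromere and kinetochore genes, 6 were above 0 (85.7%), against 43.7% of all genes tested. An interval above 1 was seen in 4 (57.1%), against 22.3%, and an interval below 1 in 1 (14.3%), against 33.6%. Ndc80 measured 11.7 TPM (307 counts) in the Slit1 library and 7.80 TPM (212 counts) in the control library (ratio 1.5, interval 1.254 to 1.79). Nuf2 measured 16.6 TPM in the Slit1 library and 11.99 TPM in the control library (ratio 1.38, interval 1.14 to 1.68), and Spc25 16.4 TPM in the Slit1 library and 12.3 TPM in the control library (ratio 1.34, interval 1.04 to 1.72). Spc24, which completes this complex and is named after its value was seen, was at 15.5 TPM in the Slit1 library and 12.9 TPM in the control library (ratio 1.202, interval 0.917 to 1.58). The NDC80 subunits thus shared a direction, although that of Spc24 was within counting error. Knl1, the platform that receives the BUB proteins, measured 4.25 TPM (309 counts) in the Slit1 library and 5.46 TPM (382 counts) in the control library, 1.28-fold lower (interval 1.10 to 1.497). With the length trend removed, the interval of its ratio, 0.751 to 1.0196, included 1, and Bub3 was then the member with an interval below 1 (0.844 to 0.990). The Ndc80 level was 2.75 times the Knl1 level in the Slit1 library and 1.43 times in the control library.

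Centromere proteins proper were low in both libraries. Cenpa, the centromeric histone H3 variant, measured 6.86 TPM in the Slit1 library and 4.85 TPM in the control library (ratio 1.41, interval 1.15 to 1.76). Cenpe, a kinetochore motor, was at 5.03 TPM in the Slit1 library and 4.41 TPM in the control library, and Cenpf, a large coiled-coil protein, at 5.14 TPM in the Slit1 library and 4.83 TPM in the control library, and the intervals of both ratios included 1.

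The chromosomal passenger complex, which corrects faulty attachments and drives cytokinesis, was uneven. Birc5, which encodes survivin, had the largest ratio of the 41 genes, with 24.8 TPM (200.2 counts) in the Slit1 library and 13.5 TPM (104 counts) in the control library (1.84, interval 1.45 to 2.37). Aurkb, its kinase, measured 18.2 TPM in the Slit1 library and 14.1 TPM in the control library (ratio 1.29, interval 1.08 to 1.55), and Cdca8, borealin, 25.8 TPM in the Slit1 library and 21.4 TPM in the control library (ratio 1.204, interval 1.03 to 1.42). Incenp, the scaffold, was at 19.0 TPM in the Slit1 library and 19.2 TPM in the control library (ratio 0.990, interval 0.904 to 1.08), and its sign turned above 0 under the other 5 scalings. The Birc5 level was 1.31 times the Incenp level in the Slit1 library and 0.703 times in the control library.

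All 6 genes of spindle assembly, the midzone and cytokinesis were above 0, against 43.7% of all genes tested. An interval above 1 was seen in 5 (83.3%), against 22.3%, but none was 1.5-fold higher, against 3.72%. Nusap1, a microtubule bundler, stood highest with 29.3 TPM in the Slit1 library and 21.0 TPM in the control library (ratio 1.39, interval 1.22 to 1.59). Racgap1, a subunit of centralspindlin, measured 27.2 TPM in the Slit1 library and 21.5 TPM in the control library (ratio 1.27, interval 1.13 to 1.43), and Ect2, the RhoA exchange factor it recruits, 7.46 TPM in the Slit1 library and 6.71 TPM in the control library (ratio 1.11, interval 0.929 to 1.33). The midzone bundler Prc1 had a ratio of 1.21 (interval 1.10 to 1.32) and the spindle-associated Hmmr one of 1.26 (interval 1.08 to 1.48). For Tpx2, the activator of aurora A, the ratio was 1.11 (interval 1.01 to 1.22). Tpx2 measured 36.0 TPM in the Slit1 library and 32.4 TPM in the control library.

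Proliferation markers of chromosome structure did not keep step. Mki67, which coats mitotic chromosomes and is the common histological marker of cycling cells, measured 17.4 TPM (1625 counts) in the Slit1 library and 11.7 TPM (1050.4 counts) in the control library (ratio 1.48, interval 1.37 to 1.61). Top2a, the topoisomerase that untangles sister chromatids, measured 37.6 TPM (1666 counts) in the Slit1 library and 33.3 TPM (1418 counts) in the control library (ratio 1.13, interval 1.051 to 1.21). These have the highest mean counts of the list, and their intervals did not overlap. Ncapg was at 3.68 TPM in the Slit1 library and in the control library (ratio 1, interval 0.773 to 1.29), and it lay above 0 in the other 5 scalings.

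Both transcription factors were higher by a similar step. Foxm1, which activates G2/M genes, measured 13.9 TPM (535 counts) in the Slit1 library and 9.92 TPM (358 counts) in the control library (ratio 1.41, interval 1.23 to 1.61). Mybl2, which encodes the B-Myb subunit of the activating MuvB complex, measured 14.7 TPM (488 counts) in the Slit1 library and 10.3 TPM (327 counts) in the control library (ratio 1.43, interval 1.24 to 1.65). The subunits of MuvB itself and the factors of its repressive form were named after their values were seen, for their tie to the CHR element, and were mixed. Lin52 was 1.47-fold lower (25.02 TPM in the Slit1 library, 36.9 TPM in the control library, interval 1.32 to 1.65), Lin9 1.31-fold lower (interval 1.06 to 1.6) and Lin54 1.17-fold lower (interval 1.017 to 1.34), whereas Lin37 had a ratio of 1.14 (interval 0.972 to 1.34). The pocket protein genes Rbl1 and Rbl2 had ratios of 0.946 and 0.954 with intervals that included 1, and E2f4 had a ratio of 1.31 (interval 1.19 to 1.46).

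Of the 820 pairs that the 41 genes form, 203 (24.8%) had intervals that did not overlap, against 40.6% of the pairs of all genes tested and 41.1% of those in the members' count range, a difference that was not tested. The difference followed the level little, with a Pearson's r of 0.04 between log2 mean TPM and the log2 difference across the 41 genes. It was lower in longer genes, as in the whole table: across genes, Spearman's rho between implied length and difference was -0.26 in the 41 genes and -0.20 in 13158 genes, values that share the same 2 libraries. The 21 genes at or below the median length of 2.75 kb had a median difference of 0.39, against 0.01 in all tested genes of that range, and the 20 longer ones had 0.16, against -0.11. With the length trend removed, 32 of the 41 intervals lay above 1 and the median difference was 0.35.

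**Figure D4:**
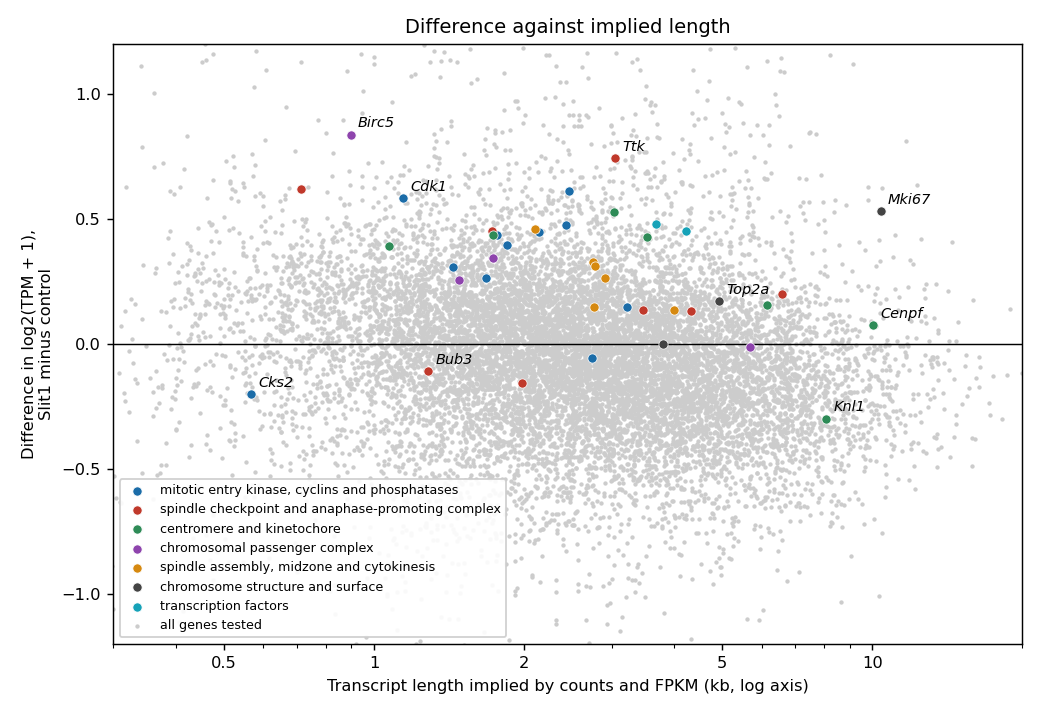
Difference in log2(TPM + 1), Slit1 minus control, against the transcript length implied by counts and FPKM (kb, log axis); coloured points are the 41 genes by role and grey points all genes tested within the axis limits. Shorter members had a median difference of 0.39 and longer ones 0.16, both above the tested genes of the same range.

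Other lists of the cell cycle were read in the same way. Of 63 other measured G2/M genes, 45 were above 0 (71.4%), against 43.7% of all genes tested. An interval above 1 was found in 26 (41.3%), against 22.3%, and an interval below 1 in 6 (9.52%), against 33.6%. At least 1.5-fold higher were 5 (7.94%), against 3.72%, and 0 were lower by that much, against 4.83%. The median difference of these genes was 0.16. The 4 largest were Haus8, an augmin subunit (50.5 TPM in the Slit1 library, 21.9 TPM in the control library, ratio 2.30, interval 1.99 to 2.67), Ska1, which binds kinetochore microtubules (ratio 1.83), Fbxo5, the inhibitor EMI1 of the anaphase-promoting complex (ratio 1.81), and Cenpk, a centromere protein (ratio 1.76). Of 51 genes of DNA replication and G1/S, 42 were above 0 (82.4%), 27 had an interval above 1 (52.9%) and 3 an interval below 1 (5.88%). At least 1.5-fold higher was 1, Tk1 (1.96%, against 3.72% of all genes tested), and the median was 0.24. Mcm6, a helicase subunit, and Pola2, of DNA polymerase alpha, had ratios of 1.497 and 1.48, and Slbp, which binds histone mRNA, was 1.42-fold lower.

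The cohesin list lay below 0. Of its 12 genes, 10 were below 0 (56% of all genes tested), 9 had an interval below 1 (33.6% of all genes) and 1 above (22.3%), and 0 passed 1.5-fold. The median was -0.20, against -0.05 over all genes tested and -0.11 over tested genes longer than 2.75 kb. Length was not taken out of this comparison. The release factor Wapl was the lowest (27.2 TPM in the Slit1 library, 38.7 TPM in the control library, 1.42-fold lower, interval 1.33 to 1.52), followed by Stag2 (1.38-fold lower), Pds5a (1.22-fold lower) and Stag1 (1.22-fold lower). Among 22 measured inhibitors and antagonists of mitotic entry, 15 were below 0 and 7 above (31.8%, against 43.7% of all genes tested). An interval below 1 was seen in 10 (45.5%), against 33.6%, and one above 1 in 6 (27.3%), against 22.3%. At least 1.5-fold higher were 2 (9.09%), against 3.72%, and 0 were lower by that much, against 4.83%. The median of these inhibitors was -0.12. The 2 higher ones were Cdkn1c, the CDK inhibitor p57 (73.1 TPM in the Slit1 library, 29.0 TPM in the control library, ratio 2.52, interval 2.27 to 2.81), and Pkmyt1, a kinase that inhibits CDK1 (10.9 TPM in the Slit1 library, 5.32 TPM in the control library, ratio 2.06, interval 1.598 to 2.66). Cdkn1a, p21, was 1.48-fold lower (314 TPM in the Slit1 library, 464 TPM in the control library, interval 1.43 to 1.53). The list of inhibitors also holds the MuvB genes Lin9, Lin37, Lin52 and Lin54 given above, whose complexes both repress and activate G2/M genes.

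**Figure D5:**
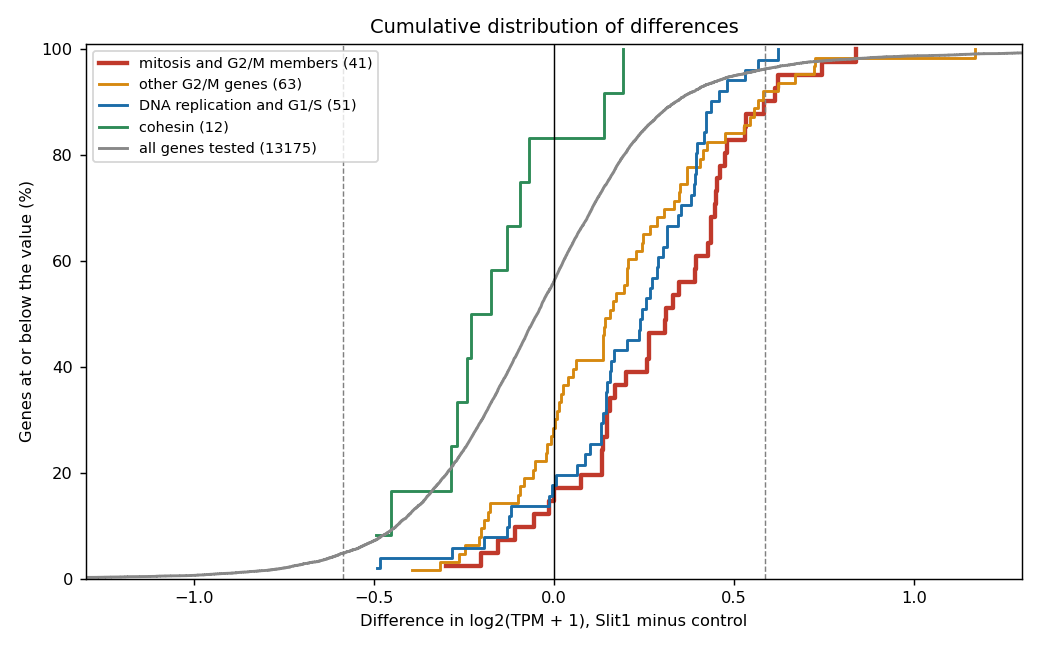
Cumulative share of genes (%) by the difference in log2(TPM + 1), Slit1 minus control, for the 41 mitosis and G2/M genes, 3 related lists and all 13175 genes tested, with the number of genes in brackets; dashed lines mark 1.5-fold either way and a few genes of the whole table lie beyond the axis. The medians are 0.31 for the members, 0.16 for other G2/M genes, 0.24 for DNA replication and G1/S, -0.20 for cohesin and -0.05 for all genes.

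The libraries held 18998770 estimated counts in Slit1 and 18817462 in control, and the 41 genes took 1007 CPM of them in the Slit1 library and 814 CPM in the control library (ratio 1.24, counting interval 1.21 to 1.26). Slit1 itself was at 229.7 TPM in the Slit1 library and 1.70 TPM in the control library, which accords with the labels. Markers of the labelled cell type were present: Pdgfra was at 41.4 TPM in the Slit1 library and 40.3 TPM in the control library, and Olig2 at 178 TPM in the Slit1 library and 171 TPM in the control library. Of the 11 OPC markers in the table, 3 were at least 1.5-fold higher (Sox10, ratio 3.05, Neu4, 2.60, and C1ql1, 2.12) and 1 lower (Tmem100, 2.15-fold), and their sum was 2551 TPM in the Slit1 library and 2668 TPM in the control library. Markers of later stages moved with the same contrast: the 1.5-fold limit was passed upwards by 5 of 8 markers of newly formed oligodendrocytes (summed 2733 TPM in the Slit1 library and 1710 TPM in the control library), and by 6 of the 7 markers of mature oligodendrocytes at the floor (summed 3632 TPM in the Slit1 library and 820 TPM in the control library). Astrocyte markers were abundant in both, with a sum over 10 genes of 10533 TPM in the Slit1 library and 9536 TPM in the control library, of which Gfap made up 6130.1 TPM in the Slit1 library and 4694 TPM in the control library, and 9 of the 10 were at the floor, of which 0 were 1.5-fold higher and 2 lower. Microglial markers summed to 5.19 TPM in the Slit1 library and 3.02 TPM in the control library over the 6 of 10 that the table lists, and Itgam was at 0 in the control library. Which of these cells held the mitotic RNAs, and their part in the differences, was not tested.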

How the data were processed

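RNA of 2 rat OPC cultures, 1 transfected with Slit1 and 1 with vector (control), was sequenced. The authors deposited 1 table with FPKM, TPM and estimated counts per gene, per the file headers: FPKM is scaled by length and depth, TPM is the same scaled to one sum per library, and estimated counts are not normalized. The build mRatBN7.2 comes from the submitters' processing notes; neither aligner nor counter, annotation or strand is stated there. The number of value columns of other samples was 0. TPM differences were taken as log2(TPM + 1), Slit1 minus control, over genes averaging 1 TPM or more. Estimated counts were rounded to whole numbers for the 95% Clopper-Pearson interval of the ratio of 2 Poisson counts, carried to the TPM ratio; intervals cover counting error only. Implied length was count divided by FPKM and summed counts. The calculation was tested on simulated data. The 6 scalings were TPM, TPM centred on the median gene, CPM, CPM with edgeR 4.0.16 TMM factors, FPKM, and TPM with the length trend removed (statsmodels 0.14.6 lowess, span 0.3). Other alternatives were pseudocounts of 0.1 and 5, no floor, a floor of 5 TPM, and fold limits of 25% above control and 2-fold. Every measured member could be named; other lists give up to 4 genes with the largest difference, and exceptions are marked. Members, lists and the rule were chosen with earlier results of these data known. For promoters, the first listed start of each gene was used and motifs were searched as exact letters on both strands. Genes with a similarly named copy or an overlapping neighbour in GRCr8 (rRNA and snoRNA genes not counted) numbered 19 of the 41, and their counts are uncertain if reads were divided.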

Additional observations from a re-analysis of the deposited data

How the results depend on the processing

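Of the 41 genes, 34 were above 0 in all 6 scalings and 5 (Cdc25b, Bub3, Mad2l1, Cks2 and Knl1) below 0 in all 6, while Incenp and Ncapg turned above 0 outside TPM. The median difference stayed between 0.26 and 0.36 under every alternative, and that of all genes between -0.05 and 0.01 over the scalings. The number at least 1.5-fold higher, 4, became 1 with a pseudocount of 5 TPM, 20 with a limit of 25% above control and 0 with a limit of 2-fold, and lay between 3 and 6 under the others; the number lower was 0 throughout. The number with an interval above 1, 28, became 13 of 22 genes without those that overlap another gene (rRNA and snoRNA genes not counted) or have a similarly named copy, an alternative chosen after seeing the data that leaves fewer genes by construction; the median was then 0.26. Of 365 values of single members under 9 alternatives, 359 stayed inside their counting interval, and 0 of the called ones changed sign. The others were Ttk and Mki67 with a pseudocount of 5 TPM, and Knl1, Incenp, Top2a and Mki67 with the length trend removed. No paired analysis was possible because each group has 1 library. Counts of 104 to 1666 per gene limit the precision.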

Other observations

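The length that the authors' processing used for a gene, as implied by its count and FPKM, was nearly constant between the libraries for most of the 41 genes and differed by more than 5% in 6 of them, against 1471 of 13158 genes tested. It was 1.13 kb in the Slit1 library and 1.019 kb in the control library for Spc25, whose 166 counts in the Slit1 library and 108 in the control library give a count ratio of 1.54 against a TPM ratio of 1.34. For Cenpe it was 5.79 kb in the Slit1 library and 6.49 kb in the control library, with a count ratio of 1.06 and a TPM ratio of 1.14. Ndc80, Aurka, Incenp and Cdc25c were the others.

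In the GRCr8 annotation 10 of the 41 genes had a similarly named copy, of which 3 copies are listed in the table. Ccnb2-ps2 was at 4.02 TPM in the Slit1 library and 3.85 TPM in the control library, Ube2cl1 at 0.77 TPM in the Slit1 library and 0.47 TPM in the control library, and Cks2l1 at 1.18 TPM in the Slit1 library and 0.43 TPM in the control library. The spans of 7 genes overlapped another protein-coding gene. Lcorl, which overlaps Ncapg, measured 28.9 TPM in the Slit1 library and 18.0 TPM in the control library, a difference that Ncapg itself did not show. Ndufaf1, which overlaps Nusap1, measured 31.5 TPM in the Slit1 library and 40.9 TPM in the control library, opposite in direction to Nusap1, and Fam210b, which overlaps Aurka, 14.0 TPM in the Slit1 library and 19.5 TPM in the control library, opposite to Aurka.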
